A study of Homo sapiens with 4 samples.

Results

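EZH2 peaks were described at 10 genes of the T-box family: TBX1, TBX2, TBX3, TBX4, TBX5, TBX15, TBX18, TBX20, TBR1 and EOMES. The loci were chosen by gene, as all peaks that share at least 1 base with the 20 kb on either side of each gene start (hg19, starts given to the nearest 1 kb). Within these windows lay 18 of the 31077 peaks called in H3.1-WT cells and 12 of the 35016 called in H3.1-K27M cells. HEK293, a human cell line of embryonic kidney origin, was infected with a lentivirus and selected in G418 (0.5 mg/ml), and the histone it carried was switched on by doxycycline (1 µg/ml). One group expressed the H3.1-WT histone and the other H3.1-K27M, in which methionine replaces lysine 27. The labels name no promoter for the histone and state no change to the cells' own H3 genes. EZH2 was mapped by CUT&RUN on 200000 cells per reaction, a method that cuts out and sequences the DNA around an antibody-bound protein. Each genotype had 1 EZH2 library and 1 control library made with anti-rabbit HRP secondary antibody alone, and its peaks were called against that control. With 1 library per group there is no replicate spread, so the genotypes were set side by side without a test, and an effect of genotype and of library cannot be told apart. The lists hold no read counts and depth is unknown.

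EZH2 is the catalytic subunit of Polycomb repressive complex PRC2, which methylates lysine 27 of histone H3 at developmental genes that a cell keeps silent. T-box genes are classic examples of such targets. They encode transcription factors that share the T-box DNA-binding domain and act in the heart, limbs, pharyngeal arches, mesoderm and brain, and many are dosage-sensitive in human development. TBX2, TBX3, TBX4 and TBX5 form one subfamily, in which TBX2 lies next to TBX4 and TBX3 next to TBX5. TBX1, TBX15, TBX18 and TBX20 are more distant relatives, and TBR1 and EOMES form a further subfamily.

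Promoter sequences are shown for 4 members that stand for the patterns found at the gene starts: TBR1 and EOMES had a peak within 1 kb of the start in both genotypes, TBX20 in H3.1-WT alone, and TBX4 in neither. The sequences are from RefSeq (GRCh38.p14) and run from 250 bases before to 50 bases after an annotated start, 5′ to 3′ on the gene's strand. Capitals mark CpG dinucleotides, the sites of DNA methylation, which are dense in many Polycomb target promoters. The positions are TBR1 chr2:161416047-161416346 (plus strand), EOMES chr3:27722274-27722573 (minus), TBX20 chr7:35254051-35254350 (minus) and TBX4 chr17:61456238-61456537 (plus). These positions cannot be set against the hg19 peaks, so whether each stretch lies inside a peak was not tested.
TBR1: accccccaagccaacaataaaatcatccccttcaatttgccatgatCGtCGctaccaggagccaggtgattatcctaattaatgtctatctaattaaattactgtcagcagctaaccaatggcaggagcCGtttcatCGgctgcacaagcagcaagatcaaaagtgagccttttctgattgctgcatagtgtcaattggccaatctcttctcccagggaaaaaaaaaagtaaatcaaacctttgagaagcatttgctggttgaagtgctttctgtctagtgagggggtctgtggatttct
EOMES: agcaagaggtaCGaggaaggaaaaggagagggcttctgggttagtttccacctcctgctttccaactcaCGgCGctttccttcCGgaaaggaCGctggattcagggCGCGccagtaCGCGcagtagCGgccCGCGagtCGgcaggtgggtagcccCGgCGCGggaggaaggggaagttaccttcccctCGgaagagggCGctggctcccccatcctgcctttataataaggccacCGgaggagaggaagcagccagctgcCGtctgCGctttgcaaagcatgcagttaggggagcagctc
TBX20: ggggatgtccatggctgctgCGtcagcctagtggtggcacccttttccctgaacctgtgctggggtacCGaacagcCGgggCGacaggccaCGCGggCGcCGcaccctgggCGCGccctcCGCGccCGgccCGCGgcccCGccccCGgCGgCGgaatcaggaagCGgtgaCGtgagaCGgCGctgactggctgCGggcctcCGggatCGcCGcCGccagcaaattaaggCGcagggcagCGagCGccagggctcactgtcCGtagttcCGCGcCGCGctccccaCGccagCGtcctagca
TBX4: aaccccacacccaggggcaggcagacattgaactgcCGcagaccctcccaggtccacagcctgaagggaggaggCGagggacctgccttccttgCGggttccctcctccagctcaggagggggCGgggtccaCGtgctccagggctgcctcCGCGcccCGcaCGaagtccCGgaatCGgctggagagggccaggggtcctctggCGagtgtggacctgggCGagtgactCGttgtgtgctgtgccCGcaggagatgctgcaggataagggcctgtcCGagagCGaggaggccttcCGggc

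CpG number did not follow the pattern of peaks among these 4 promoters. It was 4 in TBR1, 21 in EOMES, 38 in TBX20 and 18 in TBX4. Of the 10 members, 7 had an entry in the RefSeq promoter table, with 8 sequences in all. Besides the 4 shown, TBX1 had 22 CpG, TBX18 21, and the entries of TBX5 21 and 15. The median over 35116 promoters of the same length was 14, so TBR1 was the single member with an entry below it. The T-box core motif GGTGTGA, searched on both strands with no other motif, was in 0 of the 8 sequences and in 3.45% of all promoters.

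In H3.1-WT cells, EZH2 peaks lay at nearly all of the 10 T-box genes examined. These were chosen with earlier results of these data known, and the rest of the family was not analysed. A peak was present at 9 of the 10 loci, all but TBX4, where 29.1% of autosomal windows of the same length held one. Peaks covered 38040 bases, or 9.51% of the 10 windows, against 1.15% of all autosomal windows. In H3.1-K27M cells 7 of the 10 loci held a peak, against 23% of windows, and 10361 bases were covered, or 2.59% against 1.20%. TBX2 and TBX20 had peaks in H3.1-WT alone, 2 of the 9 loci with an H3.1-WT peak, where 48.6% of autosomal windows with an H3.1-WT peak held none in H3.1-K27M. The autosomal windows were laid end to end and mostly do not centre on gene starts, so they show the genome's level and not that of comparable genes.

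**Figure D1:**
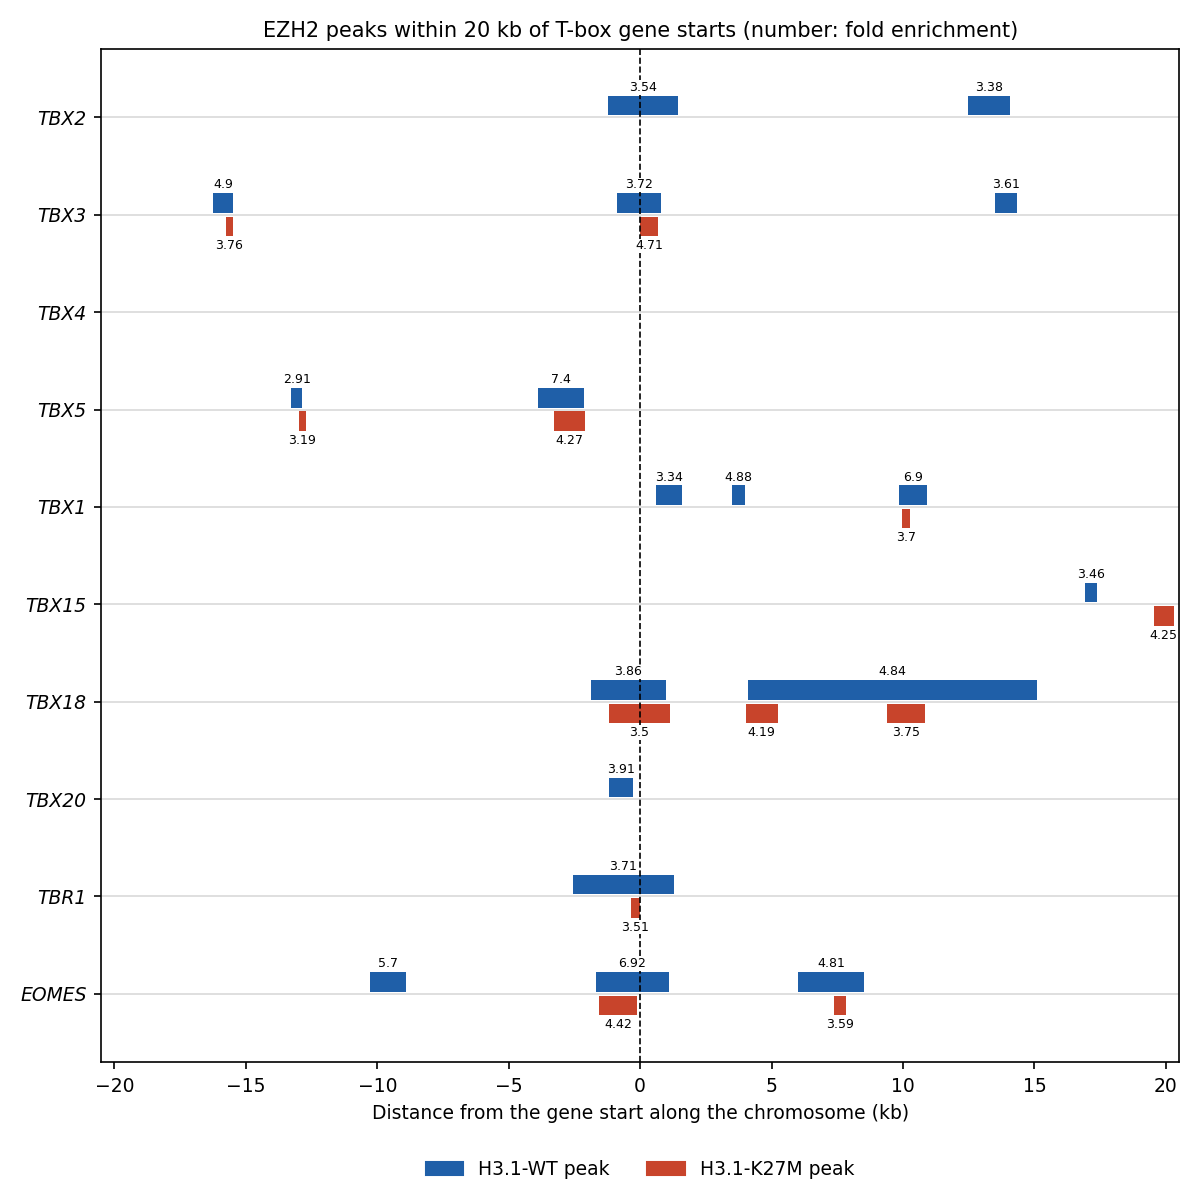
EZH2 peaks of H3.1-WT (blue, above each line) and H3.1-K27M (red, below) by distance in kb from the start of each T-box gene along the chromosome, with the fold enrichment of each peak as a number. H3.1-WT has 18 peaks at 9 loci, H3.1-K27M 12 peaks at 7 loci, and TBX4 has none.

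The covered length was lower in H3.1-K27M at 8 of the 9 loci with a peak. Among autosomal windows with a peak in either list this held for 59.9%, and among windows with an H3.1-WT peak, as all 9 loci had, for 76.5%. Summed over the 10 windows, the ratio of H3.1-K27M to H3.1-WT was 0.272, against 1.04 over all autosomal windows and 0.818 over those with an H3.1-WT peak. A choice of windows by H3.1-WT peaks, as in the last value, itself favours a low ratio. Leaving out any 1 locus kept the T-box ratio between 0.222 and 0.307. Nearly all of what was covered in H3.1-K27M was also covered in H3.1-WT: the shared 9475 bases made up 91.4% of the H3.1-K27M bases and 24.9% of the H3.1-WT bases. The same shares of bases were not computed over the whole lists, so these values are not read as particular to T-box genes.

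**Figure D2:**
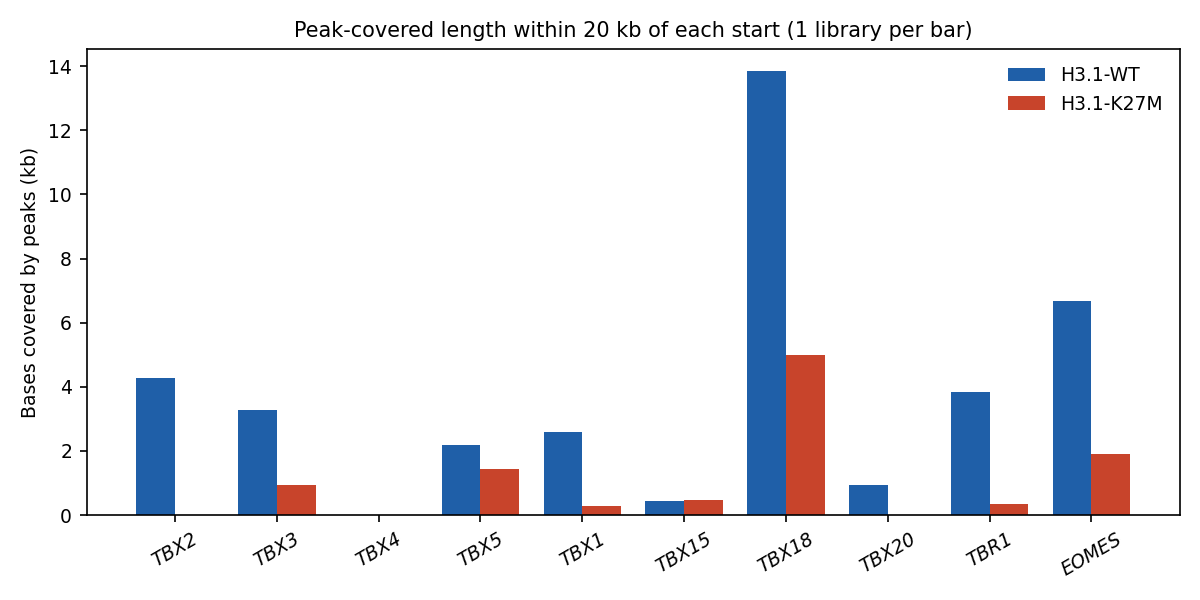
Length covered by EZH2 peaks (kb) within 20 kb of each T-box gene start, 1 bar per genotype and 1 library per bar. TBX18 has the tallest bars in both genotypes, 13838 and 4998 bases, and TBX15 is the one locus with a slightly higher H3.1-K27M bar.

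Strong peaks made up a larger share of the T-box peaks than of the whole list in H3.1-WT, and the T-box peaks of both lists were mostly above their own list's median. Fold enrichment here is the authors' ratio of EZH2 signal over the caller's background. Their −log10 q measures the statistical significance of that enrichment and not its height. It depends on depth, which is unknown, so strong shares of the 2 lists do not compare signal height. Of the 18 H3.1-WT peaks 6 were strong, which here means a −log10 q of 5 or more, against 6.78% of the list, and they lay at TBX1, TBX5, TBX18 and EOMES. Windows with such a peak made up 2.91% of autosomal windows. Of the 12 H3.1-K27M peaks 0 were strong, against 1.87% of that list and 0.923% of windows, and the highest −log10 q was 4.59, at TBX3. With so few peaks, the 0 in H3.1-K27M is near its list's share and is not read as a trait of these genes. Median fold enrichment was 3.88 over the H3.1-WT peaks and 3.76 over the H3.1-K27M peaks, against list medians of 3.42 and 3.33. In −log10 q, 15 of 18 and 11 of 12 T-box peaks lay above the median of their list. The widths differed more, with medians of 1504 bases against a list median of 778 in H3.1-WT, and 713 against 825 in H3.1-K27M.

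In the subfamily of TBX2 to TBX5, the linked pairs differed. TBX2, a repressor active in heart and limb development, had a peak over its start in H3.1-WT (chr17:59475769-59478442) with a fold enrichment of 3.54 and a −log10 q of 2.03. A second peak (chr17:59489459-59491073) lay 12.46 kb to the higher-coordinate side with a fold of 3.38. Neither was strong, and the nearest H3.1-K27M peak was 463.7 kb from the TBX2 start. TBX4, a hindlimb and lung gene whose start lies 57 kb away, had no peak in its window in either genotype. The H3.1-WT peak nearest to it, at 42.9 kb, was the second one of TBX2, and the nearest H3.1-K27M peak was 406.7 kb away. The distance of that second peak exceeds the RefSeq length of TBX2, 9624 bases, and BCAS3, TBX2-AS1 and LINC02875 also lie within 20 kb in the GRCh38.p14 annotation, so it need not belong to TBX2. From 20 to 200 kb beyond both starts neither list held a peak.

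TBX3 is a repressor required for limb, mammary and cardiac conduction development. It was the locus where the called peak at the start had a higher fold enrichment in H3.1-K27M. The calls differ in width, so these folds do not compare signal over the same bases. In H3.1-WT the peak over the start (chr12:115121132-115122811) spanned 1680 bases, at a fold enrichment of 3.72 and a −log10 q of 2.70. In H3.1-K27M the overlapping peak (chr12:115122012-115122670) spanned 659 bases, with a fold of 4.71 and a −log10 q of 4.59. Within its own list the H3.1-K27M peak ranked above 97.7% of peaks and the H3.1-WT peak above 76.8%. The other TBX3 peaks went the opposite way. The one 15.49 kb to the lower-coordinate side had a fold of 4.90 for H3.1-WT against 3.76 for H3.1-K27M, and the one 13.48 kb to the higher-coordinate side, with a fold of 3.61, was called in H3.1-WT alone.

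TBX5, which drives heart and forelimb development, had the strongest peak of all members. It lay from 2124 to 3881 bases from the start on the gene's side (chr12:114842119-114843876), with a fold enrichment of 7.40 and a −log10 q of 13.2 in H3.1-WT. The H3.1-K27M peak there (chr12:114842721-114843894) had a fold of 4.27 and a −log10 q of 3.09. Both ranked high within their lists, above 98.5% and 93.8% of peaks. No peak lay within 1 kb of the TBX5 start in either genotype. A weak peak about 13 kb into the gene's side was the other pair with a higher fold in H3.1-K27M, 3.19 against 2.91, with 115 shared bases and −log10 q values of 1.25 and 1.03.

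Among the more distant relatives, TBX18 carried the widest region. TBX18 acts in the sinoatrial node and the mesenchyme of the ureter. In H3.1-WT a peak of 10992 bases (chr6:85478116-85489107), wider than 99.9% of that list, began 4116 bases from the start on the upstream side and had a fold enrichment of 4.84 and a −log10 q of 5.80. In H3.1-K27M 2 separate peaks lay there, of 1209 and 1476 bases, with folds of 4.19 and 3.75, and together they shared 2588 bases with the wide H3.1-WT peak. The peaks over the TBX18 start were closer to each other, 2846 bases wide with a fold of 3.86 in H3.1-WT and 2313 bases with a fold of 3.50 in H3.1-K27M. The locus held 36.4% of the bases covered at T-box genes in H3.1-WT and 48.2% of those in H3.1-K27M.

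TBX1, the pharyngeal arch gene deleted in DiGeorge syndrome, had 3 peaks in H3.1-WT, all on the gene's side of the start, and 1 in H3.1-K27M. The H3.1-WT peaks lay 0.59, 3.48 and 9.85 kb from the start, with fold enrichments of 3.34, 4.88 and 6.90, so the strongest was the one farthest from it. Inside that peak (chr22:19753849-19754897) lay the H3.1-K27M peak, 286 bases wide (chr22:19753961-19754246) with a fold of 3.70, and the −log10 q values were 9.73 and 2.14. The quotient of these folds, 0.537, was the lowest of all overlapping T-box pairs. In the GRCh38.p14 annotation GNB1L overlaps the body of TBX1, so peaks on this side need not belong to TBX1. Every other member also has an annotated neighbour within 20 kb of its body, such as TBX3-AS1 and TBX5-AS1, which overlap TBX3 and TBX5. Peaks at those loci need not belong to the named member either.

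TBX20, a cardiac factor, had a single H3.1-WT peak, 271 to 1200 bases from its start on the gene's side (chr7:35292800-35293729), with a fold enrichment of 3.91 and a −log10 q of 2.75. The nearest H3.1-K27M peak was 67.4 kb from the TBX20 start. TBX15, a factor of skeletal and adipose development, had no peak within 10 kb of its start in either genotype. Its H3.1-WT peak lay 16.92 kb away with a fold of 3.46 and a −log10 q of 1.75. The H3.1-K27M peak lay 19.54 kb away, across the edge of the window, with a fold of 4.25 and a −log10 q of 2.98, and the peaks did not overlap. Within the window 437 and 464 bases were covered. TBX15 was thus the locus with slightly more covered bases in H3.1-K27M, and its H3.1-K27M peak was the one not overlapped by H3.1-WT. It was also the last peak inside the 20 kb limit; the first one outside lay 20.2 kb from the TBX18 start in H3.1-K27M (fold 2.92) and 23.7 kb from the TBX5 start in H3.1-WT (fold 3.36).

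TBR1 and EOMES, which mark successive stages of cortical neuron formation, both had peaks at the start in both genotypes. EOMES also acts in mesendoderm and in T cells. The EOMES peak over the start (chr3:27762314-27765081) had a fold enrichment of 6.92 and a −log10 q of 10.8 in H3.1-WT. The corresponding H3.1-K27M peak (chr3:27762438-27763896) had a fold of 4.42 and a −log10 q of 3.32. It lay wholly inside the H3.1-WT peak, and both ranked high in their lists, above 97.9% and 95% of peaks. On the upstream side, 6.01 kb away, an H3.1-WT peak of 2506 bases and fold 4.81 held an H3.1-K27M peak of 450 bases and fold 3.59. A strong H3.1-WT peak 8.90 kb away on the gene's side (chr3:27753711-27755104, fold 5.70, −log10 q 6.06) had no counterpart. Its distance exceeds the RefSeq length of EOMES, 6761 bases. TBR1 had 1 peak per genotype, 3834 bases wide in H3.1-WT (chr2:162270445-162274278) and 337 bases in H3.1-K27M (chr2:162272644-162272980). The folds were 3.71 and 3.51 and the −log10 q values 2.27 and 1.84, so the H3.1-K27M call was weak. The TBR1 calls differed by width far more than by fold, but signal over the same bases was not compared.

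Peaks shared between the genotypes were narrower in H3.1-K27M throughout. An H3.1-K27M peak overlapped 10 of the 18 H3.1-WT peaks (55.6%; 95% Wilson interval from 33.7% to 75.4%), against 36% of the list. In the other direction 11 of 12 were overlapped (91.7%; from 64.6% to 98.5%), against 31.6%. Both intervals describe counting error alone, and several peaks share a locus. The list values here cover all chromosomes, whereas the members and the windows are autosomal. On the autosomes the ratio of H3.1-K27M to H3.1-WT peaks was 0.976, while the whole lists held 35016 and 31077 peaks. Autosomal shares of the lists were not computed. In all 11 overlapping pairs the H3.1-K27M peak was narrower, which held for 54.9% of the 11545 pairs of the whole lists. Fold enrichment was lower in H3.1-K27M in 9 of the 11, against 58.6%, with a median quotient of 0.775 against 0.959. Each peak carries a single fold and paired peaks differ in width, so signal over the same bases was not compared. The wide H3.1-WT peak of TBX18 enters 2 of the 11 pairs and several pairs share a locus, so the pairs are not independent. By locus, the highest fold was lower in H3.1-K27M at 6 of the 7 loci with peaks in both lists, against 59.5% of windows, with TBX15 as the exception. The 8 H3.1-WT peaks without a counterpart had −log10 q values from 1.75 to 6.06, and they included strong peaks at TBX1 and EOMES.

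**Figure D3:**
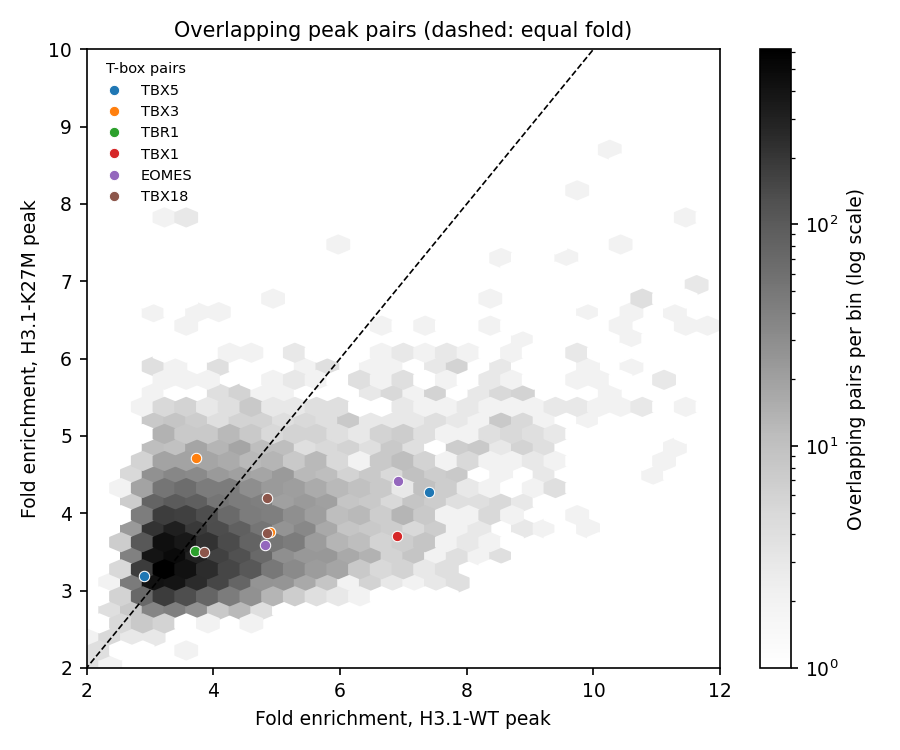
Fold enrichment of overlapping peaks in H3.1-WT (x axis) and H3.1-K27M (y axis), with the pairs that fall within the axes shown, of 11545 in all, as grey bins and the 11 T-box pairs as coloured points by gene. Of the T-box points 9 lie below the dashed line of equal fold, and 1 TBX3 pair and 1 TBX5 pair lie above it.

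Peaks near the gene start were also called at more genes in H3.1-WT, but not at every minimum strength. A peak lay within 1 kb of the start at 7 of the 10 genes in H3.1-WT (TBX1, TBX2, TBX3, TBX18, TBX20, TBR1 and EOMES) and at 4 in H3.1-K27M (TBX3, TBX18, TBR1 and EOMES). Autosomal windows of 2 kb held a peak in 3.13% and 3.1% of cases, in that order. With a minimum −log10 q of 2 the counts were 6 and 3, and with a minimum of 3 they were 2 and 2, so the difference rested on the weaker peaks. Of these start peaks only that of EOMES was strong in H3.1-WT, and none was in H3.1-K27M. The strong H3.1-WT peaks of TBX1, TBX5 and TBX18 lay between 2.12 and 9.85 kb from the start. At the 4 loci with a strong H3.1-WT peak the ratio of covered length was 0.342, all 4 with fewer bases in H3.1-K27M. Over the autosomal windows with a strong H3.1-WT peak the ratio was 0.813, with fewer bases in 75.6%. Both of these ratios come from a choice by strong H3.1-WT peaks, which itself favours a low ratio in H3.1-K27M.

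The stretch between TBX5 and TBX3 did not share this pattern. Their starts lie 276 kb apart, and the 235 kb between the 2 windows held 9 peaks and 21733 covered bases in H3.1-WT, and 11 peaks and 32795 covered bases in H3.1-K27M. The leading peak lay 31.7 kb upstream of the TBX5 start in H3.1-WT (chr12:114877704-114885200; 7497 bases, fold enrichment 8.18, −log10 q 12.7). The H3.1-K27M peak there (chr12:114877133-114884292) was 7160 bases wide, with a fold of 7.28 and a −log10 q of 10.9. A second wide pair began at 67.9 and 66.8 kb, with 7811 and 8996 bases, folds of 6.31 and 5.68, and −log10 q values of 10.8 and 6.64. Strong H3.1-K27M peaks thus lay on the upstream side of TBX5, outside its 20 kb window, at folds close to those in H3.1-WT. Of the peaks in this stretch, 5 were called in H3.1-K27M alone and 3 in H3.1-WT alone. The H3.1-K27M ones began 63.7, 87.5, 98.4, 107.0 and 109.1 kb from the TBX5 start, with −log10 q values from 1.19 to 2.47, the highest at 63.7 kb (chr12:114909691-114910101, fold 4.00). The H3.1-WT ones lay 29.9 kb from the TBX5 start and 58.6 and 27.7 kb from the TBX3 start, with −log10 q values from 1.42 to 2.0.

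**Figure D4:**
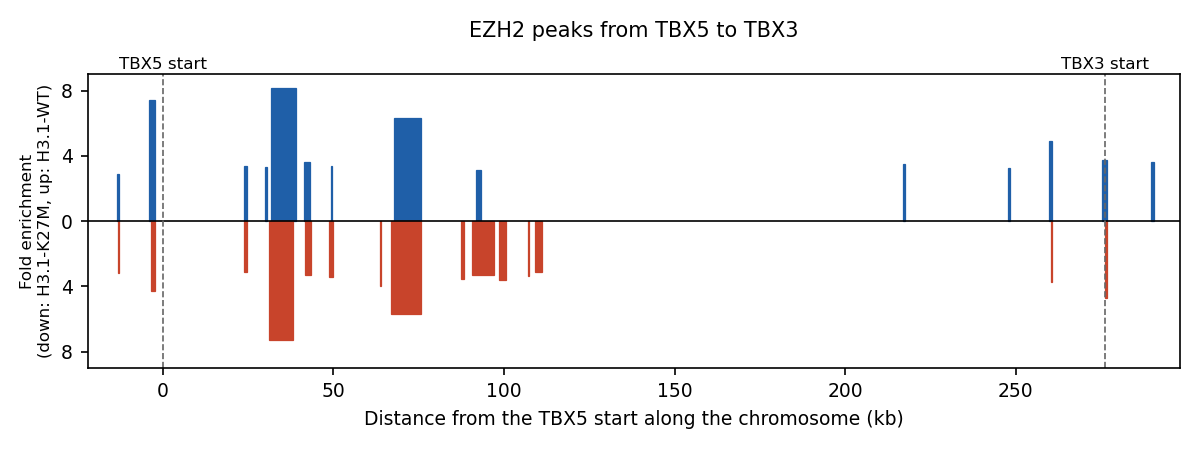
EZH2 peaks from TBX5 to TBX3 by distance in kb from the TBX5 start, with bar height as fold enrichment (H3.1-WT upward in blue, H3.1-K27M downward in red) and bar width as peak width. The leading peaks, beginning at 31.7 and 67.9 kb in H3.1-WT, have folds of 8.18 and 6.31 there, and their H3.1-K27M counterparts 7.28 and 5.68.

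Summed by distance over all 10 starts, the lower coverage in H3.1-K27M was largest near the starts. Within 20 kb the H3.1-WT list covered 9.51% of bases and the H3.1-K27M list 2.59%. From 20 to 50 kb the values were 2.78% and 2.28%, a ratio of 0.820. From 50 to 100 kb they were 1.95% and 2.80%, and from 100 to 200 kb 0.667% and 0.977%, with ratios of 1.44 and 1.46. The TBX5 locus set these outer values: without it the ratios were 0.249, 0.383, 0.597 and 0.692 from the innermost band outwards. For the other 9 loci together, coverage was therefore lower in H3.1-K27M in every band, though not at each locus. More bases were covered in H3.1-K27M at TBX15 within 20 kb, and at TBX15 and TBX18 from 20 to 50 kb. The same held at TBR1 and EOMES from 50 to 100 kb, and slightly at TBX18 from 100 to 200 kb. The summed gradient was not that of each locus. From 20 to 50 kb the ratio was 0 at TBX3 and EOMES, against 0.283 and 0.286 within 20 kb. It was higher than within 20 kb at TBX1 (0.382), TBX5 (0.972) and TBX18 (1.31). The remaining loci had no H3.1-WT coverage in that band.

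**Figure D5:**
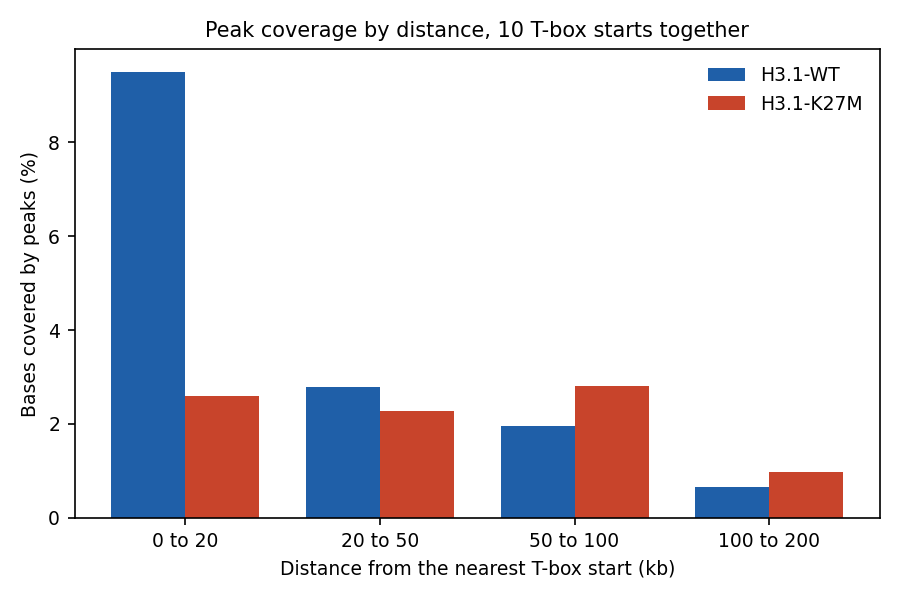
Share of bases covered by EZH2 peaks (%) in bands of distance (kb) from the nearest of the 10 T-box starts, 1 library per bar. The H3.1-WT bar is the higher one within 20 kb, 9.51% against 2.59%, and the lower one from 50 to 100 kb, 1.95% against 2.80%, where TBX5 contributes most.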

How the data were processed

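EZH2 CUT&RUN of H3.1-WT and H3.1-K27M HEK293 cells was deposited by the authors as 2 lists of broad peaks, each naming 1 EZH2 library and 1 HRP library. The titles of the H3.1-K27M libraries read H31; the mutation is named in their genotype label. Per the submitters' processing notes, cutadapt, Bowtie2 2.3.5.1, Picard, MACS2, deepTools and hg19 were used, with no parameters. Each deposited peak carries the authors' fold enrichment, a linear ratio over the caller's background, and their −log10 p and −log10 q values. These depend on depth and scaling, which are not given in the sources used here.

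Gene starts came from the rule that defines the loci. The members, lists and thresholds were chosen with earlier results of these data known, and all 10 members are named. Per locus, the peak nearest to the start and the strongest by −log10 q were given. Covered length counts peak bases within 20 kb. Background windows of 40001 bases tile the 22 autosomes, while shares and medians of a list use its peaks on all chromosomes. Strand, gene length and neighbours came from RefSeq (GRCh38.p14); strand was used for the 7 members with a promoter entry. No hg19 annotation was used, so peaks have no exon or intron class, and TBXT, TBX6, TBX10, TBX19, TBX21, TBX22 and MGA were not analysed here. Window and overlap code matched known answers on 5000 simulated sites and bedtools 2.31.1, with 0 disagreements. Tools were Python 3.11.15, pandas 2.3.3, scipy 1.17.1, matplotlib 3.10.9 and GenomeInfoDb 1.38.1. Alternatives were minimum −log10 q or fold, equal list lengths, other windows, assignment by midpoint, joined peaks, a reciprocal overlap of 50%, and single loci left out.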

Additional observations from a re-analysis of the deposited data

How the results depend on the processing

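Of 111 values under the alternatives, 88 stayed close to the reported one: counts and ratios within 1.5 times it, and overlapped shares within its 95% Wilson interval. The 88 include the peak counts with single loci left out, which could not move further because no locus held more than 3 peaks. They also include the background share of windows with a peak over all assembled chromosomes. With a minimum −log10 q of 3 the lists held 9 H3.1-WT and 4 H3.1-K27M T-box peaks, 33.3% of the former were overlapped, 5 of 5 loci had fewer bases covered in H3.1-K27M, and 2 starts had a peak in each genotype. At 5 there were 6 and 0 peaks, so the overlapped share of H3.1-WT peaks, the ratio of covered length and the number of loci with a lower highest fold were all 0; 4 of 4 loci had fewer covered bases, and 1 and 0 starts had a peak. A higher minimum leaves fewer peaks by construction. With 50 kb on each side there were 30 and 19 peaks and a ratio of 0.418. With 10 kb, 100% of H3.1-K27M peaks were overlapped, above the Wilson interval. A reciprocal overlap of 50% gave 16.7% and 25%, against 14.5% and 12.9% of the whole lists; the cause was not tested. The distance bands and the omission of single loci were added after seeing the data. In the bands the ratio was 0.820, then reversed to 1.44 and 1.46, and TBX5 set that direction. No paired analysis was possible because there is a single library per group. Since depth is unknown, neither the number nor the strength of peaks measures bound EZH2.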
